A study of Homo sapiens with 17 samples.

Results

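The SR splicing factors are RNA-binding proteins with a domain rich in arginine and serine that mark exons for the spliceosome. The 10 genes described here are SRSF1, SRSF2, SRSF3, SRSF4, SRSF5, SRSF6, SRSF7, SRSF9, SRSF10 and SRSF11, chosen by symbol, and all 10 passed the count minimum among the 9016 genes tested at 36 h and the 10896 tested at 72 h. They were followed in HEK293 cells, an established line derived from human embryonic kidney, after nucleofection of a Cas9 ribonucleoprotein (RNP), that is, purified Cas9 nuclease bound to a guide RNA. The guide targeted intron 12 of JAK2 in every sample, and the controls received dCas9, a catalytically dead form that binds the same site without cutting. Cells were lysed 36 h or 72 h later and each lysate was used for ribosome profiling, which sequences the mRNA fragments protected by ribosomes, and for RNA-seq.

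The 17 libraries fell into 8 groups. At 36 h there were 3 mRNA libraries from Cas9 cells, 2 mRNA libraries from dCas9 cells and 2 footprint libraries from each. At 72 h every group held 2 libraries. Each replicate was 1 plate into which several electroporations had been pooled, so the spread is between plates of 1 cell line. The guide was chemically synthesised at 36 h and transcribed in vitro at 72 h, and reads were aligned to different annotation releases and, by the study's methods, with different programs, so that time, guide and alignment cannot be told apart in any contrast between 36 h and 72 h. Total counts ran from 689636 to 4868580 per footprint library at 36 h and from 3183558 to 8864461 at 72 h, and mRNA libraries held 25095505 to 42825659. Of 6 HEK293 marker genes, 5 were above 1 CPM (counts scaled to the library total) in every mRNA library, PAX2 being the exception at 0 to 0.315 CPM, whereas the summed level of 5 erythroid markers did not exceed 0.114 CPM and that of 4 leukocyte markers did not exceed 0.732 CPM. Of 4 fibroblast markers only COL1A1 exceeded 1 CPM in every library, at 3.45 to 10.0 CPM. In these bulk libraries fewer cells with an mRNA and less of it per cell cannot be told apart.

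SR proteins bind exonic enhancers, recruit U1 and U2 snRNP proteins to the neighbouring splice sites and accompany spliced mRNAs to the cytoplasm, where several of them also act on translation. Their activity is set by phosphorylation of the arginine-serine domain by SRPK and CLK kinases. Most members hold their own level in check through poison exons, alternative exons that carry a premature stop codon, so that an mRNA including one is degraded by nonsense-mediated decay instead of being translated. A change in SR protein can therefore move the mature mRNA without a change in transcription.

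In GENCODE release 44 (GRCh38), 28 transcripts of the 10 genes were annotated as targets of nonsense-mediated decay, and 0 of the 28 were among the transcripts counted in the deposited tables. Reads wholly inside exons found in decay transcripts alone therefore did not enter any value given here. In 6 of the 10 genes the premature stop of such a transcript lay in an internal exon that shared no base with the counted transcript, 11 such exons in all. The longest one of each gene is shown from its first base to its stop codon, because these bases are in a decay transcript but not in the counted one. Reads from exons that a decay transcript shares with the counted coding region cannot be told apart from those of the counted transcript. The mRNA levels and the ratios of footprints to mRNA may therefore include decay isoforms. Capitals mark the stop codon, and the sequences were read from the GENCODE transcripts.
SRSF3 poison exon (chr6:36599821-36599854, plus strand): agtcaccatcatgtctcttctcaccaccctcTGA
SRSF4 poison exon (chr1:29166009-29166064, minus strand): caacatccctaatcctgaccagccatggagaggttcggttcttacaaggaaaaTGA
SRSF6 poison exon (chr20:43459153-43459304, plus strand): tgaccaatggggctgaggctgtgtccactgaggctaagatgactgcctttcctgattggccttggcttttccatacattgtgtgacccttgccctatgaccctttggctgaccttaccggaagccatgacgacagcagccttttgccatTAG
SRSF7 poison exon (chr2:38749319-38749346, minus strand): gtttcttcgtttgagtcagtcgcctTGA
SRSF9 poison exon (chr12:120464812-120464822, minus strand): aaaactatTAG
SRSF11 poison exon (chr1:70231859-70231908, plus strand): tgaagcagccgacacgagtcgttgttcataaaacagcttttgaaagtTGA
The stop codon ended at base 34 of 456 bases in SRSF3, 56 of 175 in SRSF4, 152 of 268 in SRSF6, 28 of 449 in SRSF7, 11 of 90 in SRSF9 and 50 of 117 in SRSF11. For SRSF1, SRSF2, SRSF5 and SRSF10 no annotated exon met this definition, although each has at least 1 annotated decay transcript.

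The SR genes were among the more abundant mRNAs of these cells. On the scale of CPM per kb of counted codons, which allows genes to be compared, the median mRNA level over libraries at 36 h was highest for SRSF3 at 866, followed by SRSF1 at 644, SRSF7 at 534, SRSF2 at 464, SRSF9 at 386, SRSF6 and SRSF5 at 248 each, SRSF10 at 194, SRSF4 at 142 and SRSF11 at 134. The median tested gene lay at 32.6, so that every member stood at or above the 86.4th percentile. Ranges of SRSF7 and SRSF2, SRSF2 and SRSF9, and SRSF6 and SRSF5 overlapped, and the other neighbours in this order did not. At 72 h SRSF3 again led at 768 and SRSF4 closed the order at 121.

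The footprint order at 36 h differed from the mRNA order in the place of SRSF2, and the members from SRSF9 down stood in the same order. At 36 h the median footprint level was 1206 CPM per kb for SRSF3, 1094 for SRSF2, 815 for SRSF1, 403 for SRSF7, 369 for SRSF9, 305 for SRSF6, 235 for SRSF5, 133 for SRSF10, 125 for SRSF4 and 105 for SRSF11. SRSF2 stood behind SRSF1 and SRSF7 in mRNA but ahead of both in footprints, where its range overlapped that of SRSF3. At 72 h the corresponding levels were 1313 for SRSF3, 1048 for SRSF2, 785 for SRSF1 and 577 for SRSF7, and no neighbouring ranges among these overlapped.

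**Figure D1:**
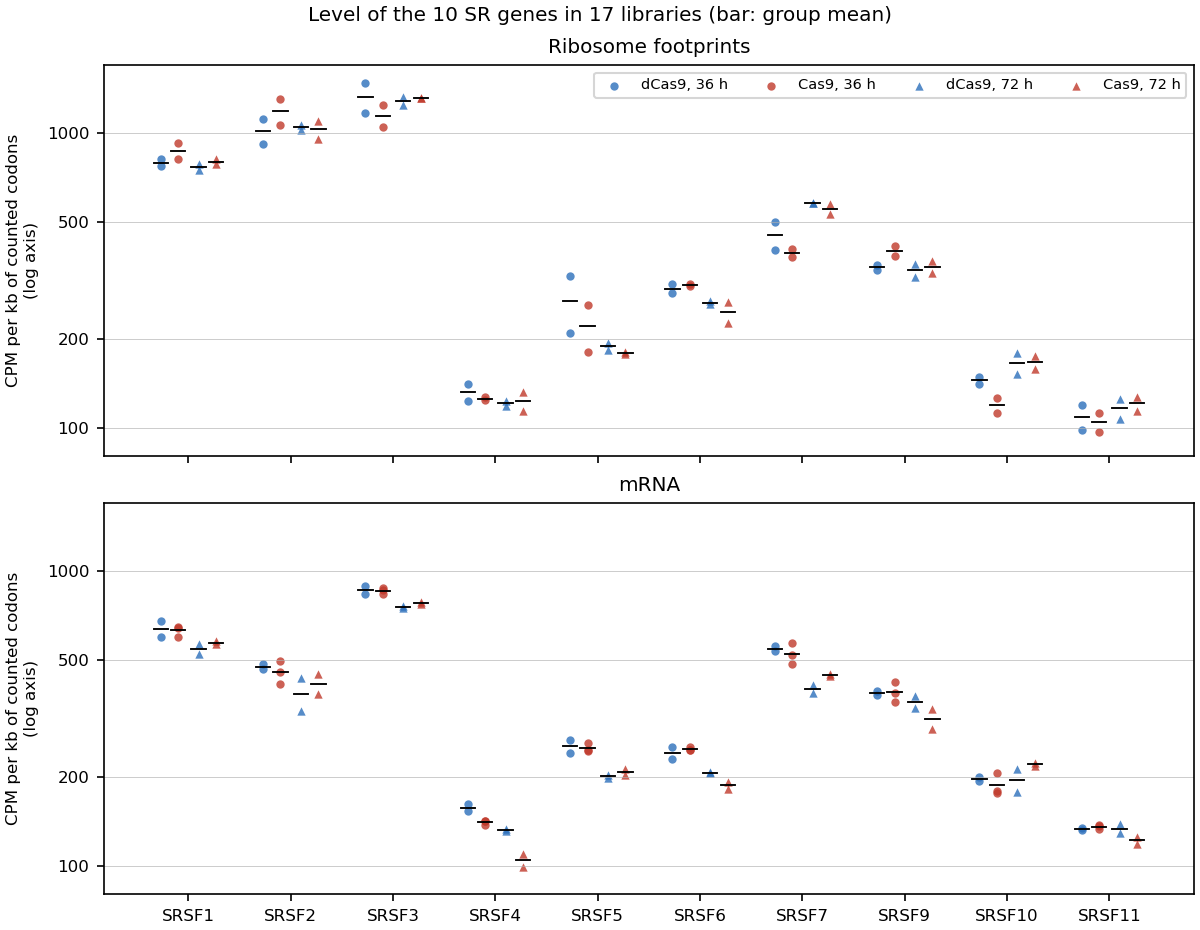
Level of each SR gene in CPM per kb of counted codons (log axis) in every footprint library (top) and mRNA library (bottom), coloured by nuclease, with circles for 36 h, triangles for 72 h and a bar at each group mean. SRSF3 is highest in mRNA at both times, and Cas9 and dCas9 points of most genes lie close together.

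The first comparison asked whether a Cas9 cut changes the amount of SR mRNA. At 36 h no SR gene passed the test (0 of 10 at a false discovery rate of 0.1, quasi-likelihood test of edgeR with p-values adjusted after Benjamini and Hochberg, and 0 of 10 by DESeq2), and 0 of 10 had an unadjusted p under 0.05. Over all tested genes 0.0222% passed and 4.68% had such a p. The 10 log2 differences lay between −0.16 for SRSF4 and 0.04 for SRSF6, with a median of −0.02 beside 0.00165 over all tested genes. No 95% interval reached beyond a 1.28-fold difference in either direction.

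SRSF4, which has a pair of RNA recognition motifs and one of the longest arginine-serine domains of the family, had the lowest difference of the 10 at both times. Its mRNA at 36 h was at 201, 195 and 202 CPM in the Cas9 libraries and at 229.7 and 218 CPM in the dCas9 libraries. All 3 Cas9 values lay under both dCas9 values, a separation of groups found in 16.9% of tested genes at this time. The log2 difference was −0.16 ± 0.0971 (SE), with an adjusted p of 0.999 from edgeR.

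At 72 h 0 of 10 SR mRNAs again passed the test, both in edgeR and in DESeq2, beside 2.69% of all tested genes, of which 290 were lower and 3 higher in Cas9 cells. The median log2 difference of the members was 0.04, beside 0.02 over all genes, with 6 members higher and 4 lower. SRSF4 was the 1 member with an unadjusted p under 0.05, as were 14.8% of all genes. Its mRNA was at 141 and 156 CPM after Cas9 and at 187 and 189 CPM after dCas9, so the groups did not overlap. Such a separation, in either direction, was found in 49.6% of all tested genes at this time. The means were 149 ± 10.5 (SD, n = 2) and 188 ± 1.59 CPM (SD, n = 2). This gave a log2 difference of −0.34 ± 0.121 (SE), a fold of 0.79 with a 95% interval of 0.658 to 0.95, an unadjusted p of 0.0164 and an adjusted p of 0.235 from edgeR. The call for SRSF4 was made when footprint and mRNA libraries shared 1 fit, with an adjusted p of 0.0854. It was also made with an offset for coding GC content, with an adjusted p of 0.0367 and a log2 difference of −0.26. Of all 10896 tested genes, 614 were called in the shared fit and 2438 with the GC offset.

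Among the other members with a pair of RNA recognition motifs, 2 were also lower in both Cas9 libraries, without passing the test. Over all tested genes 49.6% had groups without overlap in either direction, and no difference between members was tested. SRSF1, the founding member of the family, was at 398 and 389 CPM after Cas9 and at 389.7 and 359 CPM after dCas9 at 72 h, and these ranges overlapped slightly. SRSF6 was at 178 and 188 CPM after Cas9 and at 203 and 201 CPM after dCas9, so both Cas9 libraries were lower, with a log2 difference of −0.14 (95% interval −0.40 to 0.12). SRSF9, one of the shorter members, was at 176 and 206 CPM after Cas9 and at 228 and 207 CPM after dCas9, with a log2 difference of −0.19 (95% interval −0.47 to 0.09). SRSF5 was at 151 to 162 CPM in the 4 libraries, with no separation of the groups.

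Among the members with 1 RNA recognition motif, most mRNA differences at 72 h were positive. SRSF3, which also couples splicing to mRNA export, was at 337 and 341 CPM after Cas9 and at 332 and 327 CPM after dCas9. SRSF7, its close relative with an added zinc knuckle, was at 293 and 289 CPM after Cas9 and at 269 and 254 CPM after dCas9, with a log2 difference of 0.16 (95% interval −0.09 to 0.41). SRSF10, known as a splicing repressor in its dephosphorylated form, was at 163 and 159.5 CPM after Cas9 and at 129.6 and 155 CPM after dCas9, with a log2 difference of 0.18 (95% interval −0.10 to 0.46). In these 3 genes both Cas9 libraries lay above both dCas9 libraries.
SRSF2, a component of nuclear speckles, was at 271 and 232 CPM after Cas9 and at 262 and 203 CPM after dCas9, and the groups overlapped. SRSF11, an atypical member of the family, was at 174 and 166 CPM after Cas9 and at 179.5 and 193 CPM after dCas9, with both Cas9 libraries lower. In all, 3 members lay above and 4 below without overlap, beside 49.6% of all tested genes without overlap in either direction.

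Coding GC content moved with the mRNA differences at 72 h. Across the 10856 tested genes with a known coding sequence, the log2 difference and the GC percent of the coding sequence had a Spearman's rho of −0.42, and across the 10 members rho was −0.35, a description over genes that share the same 4 libraries. Member coding sequences ran from 44% GC in SRSF10 to 66.8% in SRSF2, beside a median of 51.7% over all genes. With the GC offset SRSF2 had a log2 difference of 0.20 and an adjusted p of 0.0873 from edgeR. In that fit 2 of 10 members passed, SRSF2 higher and SRSF4 lower, beside 2438 of all 10896 tested genes. The share of higher genes among all calls went from 3 of 293 to 1023 of 2438 with that offset. The part of GC content in the differences was not tested.

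Ribosome footprints on the SR genes were compared in the same way. At 36 h 0 of 10 members passed in edgeR and in DESeq2 and 0 of 10 had an unadjusted p under 0.05, beside 0% and 2.09% of all tested genes. The log2 differences ran from −0.29 in SRSF10 to 0.23 in SRSF2, and the intervals of the members reached as far as a 1.86-fold difference. The counts behind these values were smaller, from 68 for SRSF10 in the shallowest library to 2766 for SRSF1 in the deepest. SRSF2 footprints were at 788 and 645 CPM after Cas9 and at 553 and 675 CPM after dCas9, and SRSF10 footprints were at 91.3 and 81.5 CPM after Cas9 and at 108 and 102 CPM after dCas9. SRSF9 lay above and SRSF10 below dCas9 in every library, where 30.5% of all tested genes showed no overlap of groups. Across the 10 members the footprint difference at 36 h rose with coding GC content at a rho of 0.90, beside 0.11 across the 8994 tested genes with a known coding sequence. Both are descriptions of the same 4 libraries.

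At 72 h, with deeper footprint libraries, the members lay closer to 0. None of the 10 passed in edgeR and 0 of 10 passed in DESeq2, with 0 of 10 at an unadjusted p under 0.05, beside 0.0367% and 3.84% of all tested genes. The log2 differences ran from −0.10 in SRSF6 to 0.06 in SRSF1, and the intervals of the members reached as far as a 1.20-fold difference. SRSF4 footprints, in contrast to its mRNA, were at 162 and 188 CPM after Cas9 and at 176 and 168 CPM after dCas9, with a log2 difference of 0.03 (95% interval −0.15 to 0.21). SRSF5 and SRSF7 were lower in both Cas9 libraries, SRSF5 at 137 and 135 CPM beside 147 and 139 CPM and SRSF7 at 349.8 and 377 CPM beside 382 and 380.1 CPM. Non-overlapping groups occurred in 31.7% of all tested genes.

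**Figure D2:**
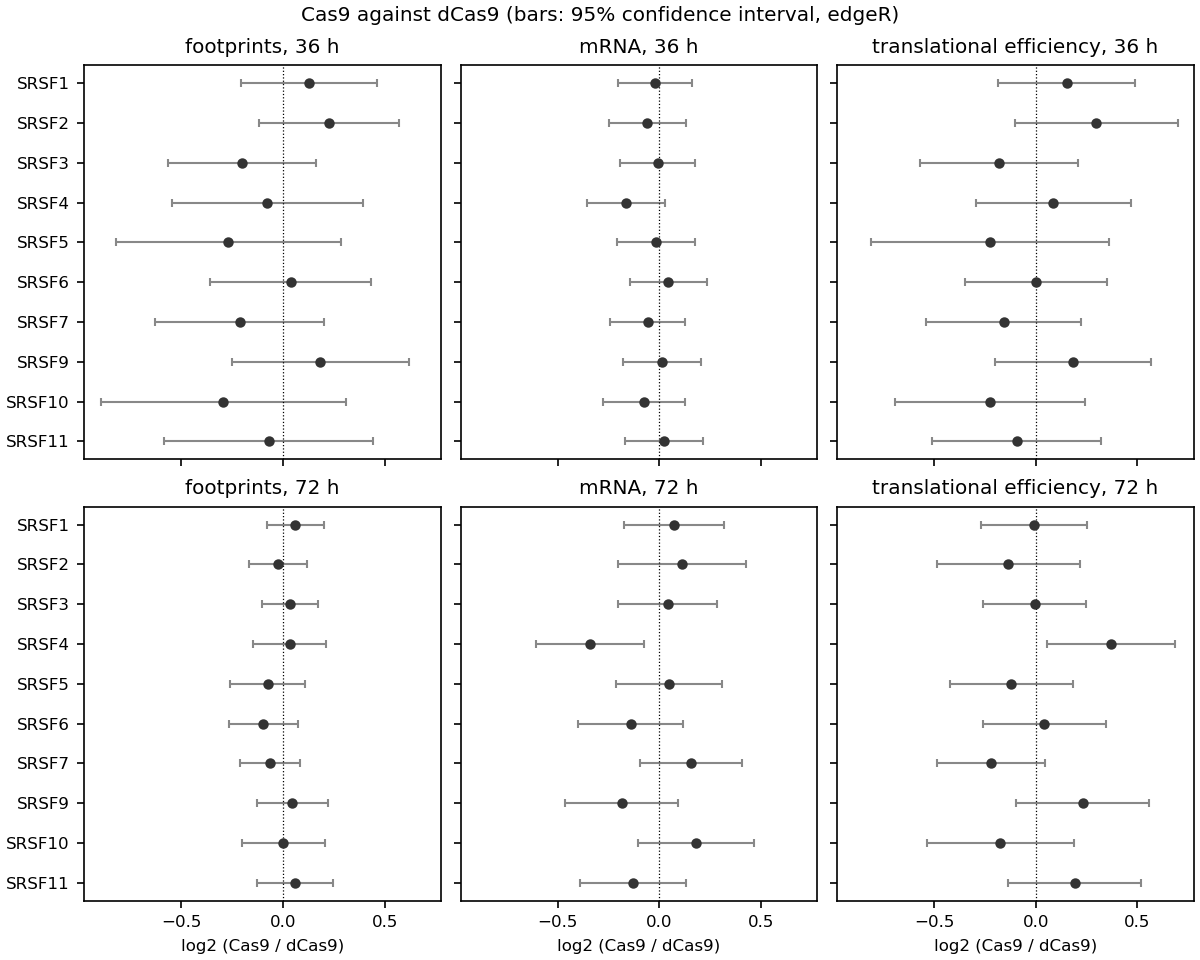
Log2 difference of Cas9 from dCas9 cells for each SR gene in footprints, mRNA and translational efficiency (columns) at 36 h (top) and 72 h (bottom), with points for the edgeR estimate and bars for its 95% interval. The intervals of the 10 genes include 0 in every panel except those of SRSF4 in mRNA (−0.34) and translational efficiency (0.37) at 72 h.

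Translational efficiency, the footprint difference minus the mRNA difference in 1 model over both library types, was called in 0 of 10 members at either time by edgeR and by DESeq2. The edgeR model used 1 variance estimate per gene for footprint and mRNA libraries, which differ in replicate spread. Its SEs and intervals may therefore be too narrow or too wide. At 36 h 0% of all tested genes were called, and 0 of 10 members and 6.3% of all genes had an unadjusted p under 0.05. At 72 h 0.716% of all tested genes were called, and 1 of 10 members and 11.2% of all genes had an unadjusted p under 0.05. The 1 member was SRSF4, with a log2 difference of 0.37 ± 0.149 (SE), an unadjusted p of 0.0249 and an adjusted p of 0.368 from edgeR. SRSF9 followed at 0.23 and SRSF11 at 0.19, neither of which passed, while SRSF7 had the lowest value at −0.22 (95% interval −0.49 to 0.05).

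Whether the response of the SR genes differed between the time points was tested as an interaction over the 8970 genes tested at both. For mRNA 0 of 10 members passed in edgeR and in DESeq2 and 0 of 10 had an unadjusted p under 0.05, beside 0.613% and 11.9% of these genes. The largest member differences between the times were 0.24 for SRSF10 (95% interval −0.09 to 0.58) and −0.21 for SRSF9 (95% interval −0.51 to 0.10). For footprints 0 of 10 members passed in edgeR and in DESeq2 and 0 of 10 had an unadjusted p under 0.05, beside 0% and 3.2% of these genes.

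The number of footprints per mRNA in dCas9 cells was tested as footprints against mRNA within those cells. Scaling of the libraries sets the average ratio over genes, so these values are relative to other genes and not absolute. The fit was that of translational efficiency, with the same limit on its intervals. SRSF1, SRSF2, SRSF3 and SRSF6 had more footprints for their mRNA than the average gene at both times, and SRSF7 did at 72 h. At 36 h 4 of 10 members were called higher and 0 lower, beside 23.6% higher and 24.6% lower over all tested genes. At 72 h 5 of 10 were called higher and 0 lower, beside 32.7% and 37.8%. The median log2 value of the members was 0.09 at 36 h and 0.29 at 72 h, beside −0.01 and −0.06 over all genes. The members' calls are thus read against a background in which a large share of all genes was called in one or the other direction.

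SRSF2 had the highest value. Its footprints in dCas9 cells were at 553 and 675 CPM at 36 h and at 623 and 647 CPM at 72 h, while its mRNA was at 280.1 and 291 CPM and at 262 and 203 CPM. In every dCas9 library of SRSF2 the footprint CPM was above every mRNA CPM, each a share of its own library. The relative ratio of footprints to mRNA was 2.37 (95% interval 1.93 to 2.92) at 36 h, the 91.8th percentile of tested genes. At 72 h it was 3.02 (95% interval 2.53 to 3.6), the 95.6th percentile. With the GC offset the log2 value of SRSF2 was 0.68 instead of 1.25 at 36 h and 1.00 instead of 1.60 at 72 h, and it was still called at both times.

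SRSF3 came next, with footprints at 504 and 641 CPM and mRNA at 361 and 386 CPM in dCas9 cells at 36 h. Its ratio was 1.69 (95% interval 1.38 to 2.06) at 36 h and 1.88 (95% interval 1.66 to 2.12) at 72 h. SRSF1, with footprints at 558 and 528 CPM and mRNA at 410.1 and 462 CPM at 36 h, had a ratio of 1.39 (95% interval 1.17 to 1.65) at 36 h and 1.56 (95% interval 1.37 to 1.77) at 72 h. SRSF6, with footprints at 298 and 278 CPM and mRNA at 246 and 224 CPM at 36 h, had a ratio of 1.37 (95% interval 1.15 to 1.64) at 36 h and 1.42 (95% interval 1.22 to 1.64) at 72 h.

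**Figure D3:**
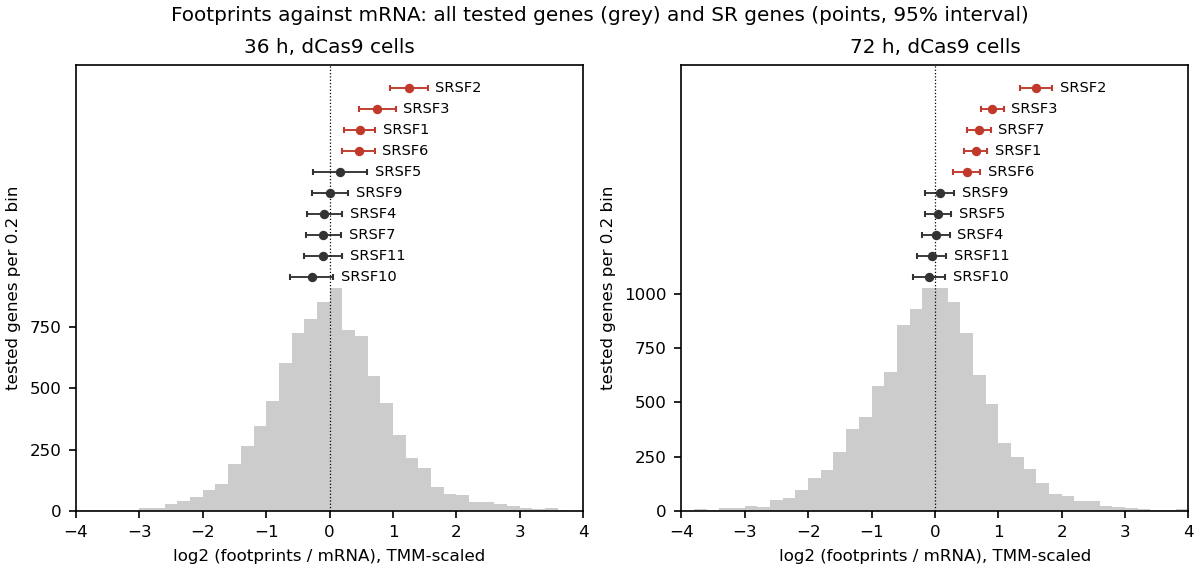
Distribution of the log2 ratio of footprints to mRNA in dCas9 cells over all tested genes (grey histogram, bins of 0.2, left axis) at 36 h and 72 h, with each SR gene above it as a point with its 95% interval, stacked by value and not against the left axis. Red points passed a false discovery rate of 0.1: 4 genes at 36 h and 5 genes at 72 h, all to the right of 0.

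SRSF4, SRSF5, SRSF9, SRSF10 and SRSF11 were called at neither time. Their log2 values at 72 h ran from −0.09 in SRSF10 to 0.08 in SRSF9, and the interval of SRSF9 reached from −0.15 to 0.31. With the GC offset SRSF5, SRSF10 and SRSF11 were also called higher at 72 h, which made 8 of 10, beside 3993 of 10896 genes called higher with that offset. At 72 h the value and coding GC content had a rho of 0.58 across the 10 members and 0.35 across all genes.

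SRSF7 was the member whose ratio differed most between the time points. Footprints of 36 h were set against the mRNA library of the same letter. The log2 ratio of SRSF7, taken relative to the median gene of each library, was then 0.07 and −0.24 after dCas9 and −0.14 and −0.17 after Cas9. At 72 h, against the mean of the mRNA libraries of the same nuclease, it was 0.74 and 0.74 after dCas9 and 0.49 and 0.60 after Cas9. The 4 libraries of 36 h therefore lay below the 4 libraries of 72 h. Both levels of the gene moved, footprints from 326 and 263 CPM to 382 and 380.1 CPM and mRNA from 349 and 364 CPM to 269 and 254 CPM in dCas9 cells, counted on the same transcript at both times. This difference was not tested, and time, guide and alignment cannot be told apart in it.

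**Figure D4:**
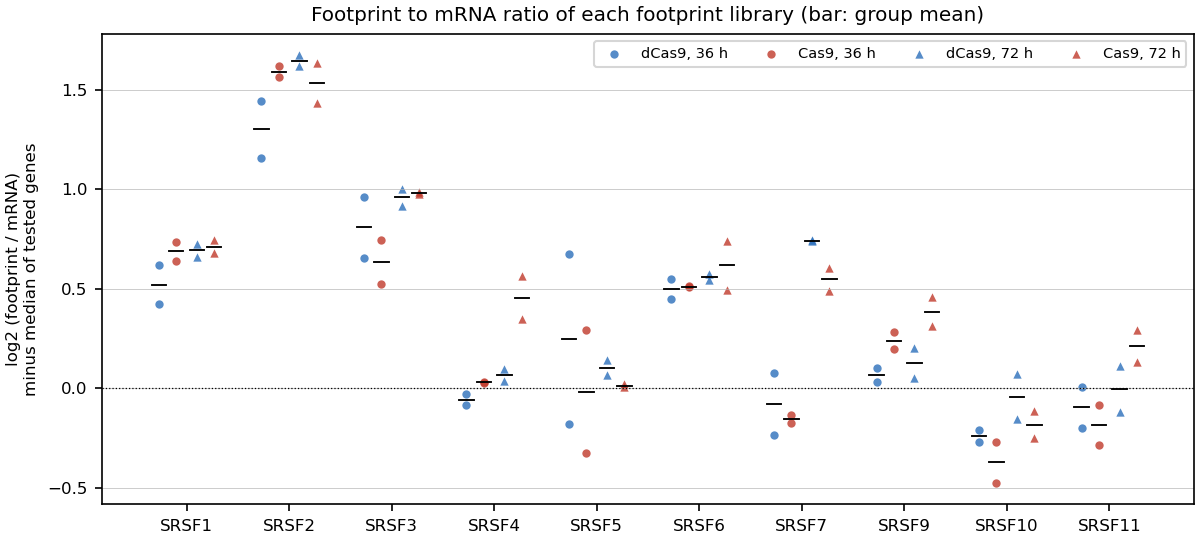
Log2 ratio of footprints to mRNA of each SR gene in each of the 8 footprint libraries, minus the median of tested genes in that library, with a bar at each group mean, circles for 36 h, triangles for 72 h and colours for the nuclease. SRSF2 lies highest in every library, at 1.15 to 1.67, and SRSF7 moves from −0.24 to 0.07 at 36 h to 0.49 to 0.74 at 72 h.

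Along 2 of the coding regions the reads could be placed more closely, because the 72 h tables also listed shorter coding regions that are the first part of the counted one. In SRSF1 the first 54 of 229 counted codons, 23.6% of the length, held 31.4% and 31.4% of the footprints after dCas9 and 31.7% and 33.7% after Cas9. The same codons held 23.3% and 23.8% of the mRNA counts after dCas9 and 21.6% and 21.9% after Cas9, close to their share of the length. In SRSF5 the order was the opposite. Its first 80 of 253 counted codons, 31.6% of the length, held 25.7% and 22.8% of the footprints after dCas9 and 19.3% and 19.9% after Cas9, beside 34.3% to 35.6% of the mRNA counts in the 4 mRNA libraries. Footprint density in the beginning of the coding region thus stood above that of mRNA in SRSF1 and below it in SRSF5, in every library of 72 h. These shares carry no test, and reads on junctions outside the shorter transcripts are not in them.

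The members did not move together across mRNA libraries. Over the 9 mRNA libraries, with log2 CPM centred within each time point, the 45 pairs of members had a median Pearson's r of −0.10, and 21 pairs were above 0. The highest was 0.87 between SRSF1 and SRSF3 and the lowest was −0.72 between SRSF1 and SRSF5. Single members had an r of −0.40 to 0.54 with the mean of all 10. The genes most like that mean were MAP2K1 at an r of 0.97, TRIM56 at 0.96, PAQR4 at 0.93, COMMD7 at 0.92 and NKIRAS2 at 0.92, out of 8970 genes, and all of these values share the same libraries.

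Other genes of splicing were described from lists chosen by function. Over all tested genes 2.69% were called in mRNA at 72 h by edgeR, and 14.8% had an unadjusted p under 0.05. Among 19 SR-related and Tra2 genes, 4 were lower and 0 higher in mRNA after Cas9 at 72 h, with a median log2 difference of −0.18. They included SCAF4 at −0.74, SRRM1 at −0.74 and SRRM2 at −0.60, the last 2 being large nuclear matrix coactivators of splicing. Of 13 genes for SR kinases, phosphatases, the importer and export partners, 1 was lower, the export receptor NXF1 at −0.54, and 0 were higher. Of 19 tested genes of nonsense-mediated decay and the exon junction complex, 0 were called by edgeR and 1 by DESeq2. In edgeR 3 of the 19 had an unadjusted p under 0.05, a share near that of all tested genes.
Of 20 proteins of the U1 and U2 snRNPs and of 3 prime splice site recognition, 8 were lower and 0 higher, led by U2AF1 at −1.03, SNRPA1 at −0.99 and SF3A1 at −0.68. Of 24 hnRNP genes, whose products often oppose SR proteins at exons, 8 were lower and 0 higher, among them HNRNPH3 at −1.38, HNRNPA0 at −0.84 and PCBP1 at −0.82. The SR genes stood beside these lists with 0 of 10 called and a median of 0.04, and the difference between the lists was not tested. Without Cas9 replicate a, which leaves 1 Cas9 library, 1 hnRNP gene and 0 genes of the other 4 lists were called lower in mRNA, and calls over all genes went from 293 to 5 in the same fit. With the GC offset the lower calls were 10 SR-related genes, 2 kinase and export genes, 4 decay factors, 9 U1 and U2 genes and 12 hnRNP genes. Higher calls with that offset were 1 kinase and export gene, 1 U1 and U2 gene and 2 hnRNP genes. Over all 10896 tested genes 2438 were called with it, 1023 of them higher and the rest lower. Without dCas9 replicate b, which leaves 1 dCas9 library, some genes of each list were called higher, as were many genes outside the lists. The absence of higher calls over the lists thus held neither without that library nor with the GC offset.

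At 36 h 0 genes of these 5 lists were called in footprints, mRNA or translational efficiency by edgeR or by DESeq2. In edgeR 1, 3 and 3 of them had an unadjusted p under 0.05, beside 2.09%, 4.68% and 6.3% of all tested genes. In footprints at 72 h 0 genes of these 5 lists were called by edgeR or by DESeq2. In edgeR 1 SR-related gene and 1 U1 or U2 gene had an unadjusted p under 0.05, beside 3.84% of all tested genes. Translational efficiency at 72 h was called higher for 2 SR-related genes, 6 U1, U2 and splice site genes and 5 hnRNP genes, including U2AF1 at 1.15 and HNRNPA0 at 0.93, and lower for 0 of them. Over all tested genes 0.716% were called in either direction. With any 1 of the 4 footprint libraries left out, 0 genes of the lists were called in translational efficiency, beside 1 to 3 over all genes, and without the mRNA of Cas9 replicate a 2 U1 and U2 genes and 4 hnRNP genes were. In the number of footprints per mRNA of dCas9 cells at 72 h, 19 of 24 hnRNP genes were called higher and 1 lower, with a median log2 value of 0.84, and 15 of 20 U1 and U2 genes were called higher and 1 lower, with a median of 0.66. Of the decay factors 6 of 19 were called higher and 10 lower, among the latter SMG5 at −2.39 and SMG1 at −1.94. Over all tested genes 32.7% were called higher and 37.8% lower, and the share of decay factors called higher was near the former.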

How the data were processed

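RNA-seq and ribosome profiling were compared in 17 libraries of HEK293 cells, grouped by library type, nuclease and time from the labels. The deposited files give raw counts per transcript, which the authors made on coding regions of the GENCODE basic annotation of GRCh38, with HISAT2 for 36 h and TopHat for 72 h by the study's methods. The submitters' processing notes list HISAT2 2.1.0 for the samples of both times, so the aligner of 72 h differs between these sources. A second column gives the number of codons counted. The titles of the Cas9 footprint libraries of 72 h spell the nuclease differently, and their treatment label was used. At 36 h Cas9 replicate b entered with its mRNA alone, and its footprints are not used here.

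Transcripts were matched to GENCODE 44 genes (25338 of 26679 listed at 36 h, 94878 of 98334 at 72 h, leaving 3.74% and 4.22% of counts unmatched), and for each gene and time the transcript with the highest summed count was kept. Genes were kept when their counts averaged 20 or more both in footprint and in mRNA libraries, and were tested with edgeR 4.0.16 (quasi-likelihood F test, TMM scaling) in R 4.3.3, each library type alone, or both in 1 fit for translational efficiency and for footprints against mRNA. Adjusted p-values are Benjamini-Hochberg over all tested genes, called at 0.1. CPM are TMM-scaled, and the ratios of single libraries used a pseudocount of 0.5 CPM. DESeq2 1.42.0, limma 3.58.1 (voom), other scalings and filters, a GC offset, replicate blocks and leaving out each library were alternatives. The main edgeR fit of each comparison was run on simulated counts, and the alternatives were not. For footprints against mRNA the simulation gave all unchanged genes the same ratio, unlike these data. Footprint and mRNA libraries of 36 h with the same letter were taken to come from the same lysate, which the labels do not state. Their deviations from the group means correlated at 0.0474 for Cas9 and 0.0115 for dCas9.

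The members and gene lists were chosen with earlier results of these data known. All members are named, and from each other list at most 3 called genes with the smallest adjusted p per comparison. Markers and poison exons come from the lists and GENCODE 44.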

Additional observations from a re-analysis of the deposited data

How the results depend on the processing

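With each alternative the count of called members stayed as given for footprints, for mRNA at 36 h, for translational efficiency, for footprints against mRNA at 36 h (apart from 1 library, below) and for the interactions. For mRNA at 72 h it rose from 0 to 2 with a GC offset, to 4 with the GC offset and replicate block together (SRSF1, SRSF2, SRSF4 and SRSF7) and to 1 with both library types in 1 fit, and was 0 to 2 when single libraries were left out, the 2 being SRSF4 and SRSF10 without dCas9 replicate b. Over all 10896 tested genes, 3481 were called in mRNA at 72 h with the GC offset and replicate block together. With the GC offset alone 2438 were called, and with both library types in 1 fit 614. For footprints against mRNA at 72 h the count of called members rose from 5 to 8 with the GC offset. At 36 h leaving out the footprints of dCas9 replicate d added SRSF5, making 5. The causes were not tested. Leaving out single libraries took SRSF2 mRNA at 72 h from −0.055 to 0.31, and footprints against mRNA at 72 h from −0.21 to 0.045 for SRSF10 and from −0.17 to 0.057 for SRSF11. The last 2 genes also changed sign elsewhere, SRSF10 to 0.0012 with filterByExpr and 0.22 with the GC offset, and SRSF11 to 0.0096 with DESeq2, 0.0094 with median-ratio size factors, 0.043 with filterByExpr and 0.19 with the GC offset.

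Letters of the 72 h libraries are not said to mark a shared batch, and same-letter libraries had deviations correlated at 0.0122 in footprints and −0.139 in mRNA. The replicate block left 0 members called in both, and moved the calls over all genes from 293 to 706 in mRNA. A crossed pairing in mRNA, chosen after seeing the data, called 829 genes and 0 members. With the block, footprints against mRNA at 72 h were −0.0030 for SRSF5 and 0.030 for SRSF11, a change of sign in genes that were not called. No block changed the call of a member without the GC offset, the lysate block of 36 h included, a fit that leaves out the mRNA of Cas9 replicate b and in which calls of footprints against mRNA over all genes went from 4344 to 3190. In the other lists the block moved lower mRNA calls at 72 h from 4 to 6 for SR-related genes and from 0 to 2 for decay factors, higher translational efficiency calls at 72 h from 5 to 8 for hnRNP genes, and lower calls of footprints against mRNA at 36 h from 7 to 4 for kinase and export genes.

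Over all genes the calls in mRNA at 72 h were 185 with median-ratio size factors, 493 with no count minimum, 614 with both library types in 1 fit and 2438 with the GC offset, and 5 to 2828 without single libraries, the 5 without Cas9 replicate a and the 2828 without dCas9 replicate b. In translational efficiency at 72 h the 78 calls became 221 with DESeq2, 170 with median-ratio size factors, 260 with no count minimum, 136 with voom, 514 with the GC offset and 1 to 1065 without single libraries. The 55 calls in the mRNA interaction became 213 with DESeq2 and 516 with the GC offset, and the 4 calls in footprints at 72 h became 7 with the GC offset, 0 with both library types in 1 fit, 13 without Cas9 replicate e and 41 without Cas9 replicate f. At 36 h leaving out dCas9 replicate d of the library type moved the calls from 0 to 72 in footprints and from 2 to 218 in mRNA, and without its footprints those in translational efficiency went from 0 to 474.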
